A study of Mus musculus with 8 samples.

Results

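The mitochondrial ribosomal protein genes were described in cerebellum of mice with and without the kinase ATM. They were chosen by name from the gene annotation, as the protein-coding genes whose symbol is Mrpl or Mrps followed by a number. The rule used no measured value, but the gene group was proposed with earlier results of these data known. The rule gave 78 of the 56691 genes in the count table, 49 of them named Mrpl and 29 named Mrps. Of these, 77 passed the filter on low counts and were tested. Mrpl53, a protein of the large subunit, was listed at 0 in all 8 libraries and was not tested. Its 0 may reflect how the annotation used for counting treats this locus, and is not read as absence of expression.

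Transcripts were read by bulk RNA sequencing of total RNA from cerebellum at 6 months of age, and how mRNA was selected is not given in the sources used here. The Atm-WT group held 4 mice (labelled 2M, 7M, 13M and 32M), with the genotype ATM +/+, littermates of the knockouts. The Atm-KO group held 4 mice (labelled 1M, 7F, 11M and 12M), with the genotype ATM -/- on the strain B6;129S4-Atmtm1Bal/J, bred from heterozygous parents and carrying the mutant allele in every tissue. Per the study's methods, mice were anesthetized with avertin and perfused with saline before tissue was taken. The labels used here name no further agent for either group. Each library came from 1 mouse, and 1 Atm-KO mouse carried the letter F where the other 7 carried M.

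Mitochondria translate the few proteins of their own genome, all of them subunits of the respiratory chain and of ATP synthase, on a ribosome that is distinct from that of the cytosol. Its rRNAs come from the mitochondrial genome, whereas every one of its proteins is encoded in the nucleus, made in the cytosol and imported. Part of these proteins descend from bacterial ribosomal proteins and the remainder were added in the mitochondrial lineage. Inherited defects in many of them cause combined respiratory chain deficiency, with brain and heart often affected. By structure, 51 of the 78 genes encode proteins of the large subunit and 26 of the small subunit. Mrps30 and Mrps18a belong to the large subunit despite their names, and Mrps36 was not assigned, since its product (also called Kgd4) is known as a component of the 2-oxoglutarate dehydrogenase complex.

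The genes were spread over 17 chromosomes, with 11 on chromosome 11. Chromosome 9, which carries Atm, held 3 of them, Mrpl4, Mrps22 and Mrpl3, at 32.4, 45.02 and 51.5 Mb from Atm. A feature that many of them shared, and that their names do not fix, was a short promoter motif. The letters CCGGAAG, the core bound by ETS factors such as GABPA (also called NRF2, a known activator of nuclear genes for mitochondrial proteins), were searched on both strands of the window from 250 bases before to 50 bases after the annotated start of each canonical transcript (GRCm39). They occurred in 24 of 78 genes (30.8%), beside 10.3% of 21770 protein-coding genes and 13.3% of the 15318 protein-coding genes that were tested. Shown are the 10 matches at offsets of -22 to -56, whose printed bases lie wholly upstream of the start, because this was the most frequent of the 4 motifs searched and the one whose share exceeded that of other promoters by the most percentage points. Each is written 5′ to 3′ in the direction of its gene, with the motif in capitals on whichever strand it was found and 12 bases on either side in lower case. The offset is the position of the first base of the motif relative to the start of the canonical transcript, which for some genes (Mrpl48, Mrpl43 and Mrpl51 among them) lies inside the annotated span of the gene.
Mrpl22 (chr11:58062425-58062455, plus strand, offset -38): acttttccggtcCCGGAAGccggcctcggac
Mrpl27 (chr11:94544550-94544580, plus strand, offset -22): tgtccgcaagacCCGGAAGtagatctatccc
Mrpl34 (chr8:71917521-71917551, plus strand, offset -22): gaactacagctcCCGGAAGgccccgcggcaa
Mrpl43 (chr19:44994919-44994949, minus strand, offset -56): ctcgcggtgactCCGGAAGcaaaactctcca
Mrpl48 (chr7:100232353-100232383, minus strand, offset -42): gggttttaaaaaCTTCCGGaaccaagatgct
Mrpl51 (chr6:125169061-125169091, plus strand, offset -51): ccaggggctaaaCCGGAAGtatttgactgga
Mrpl52 (chr14:54664307-54664337, plus strand, offset -41): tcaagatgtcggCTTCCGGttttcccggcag
Mrps18c (chr5:100946457-100946487, plus strand, offset -24): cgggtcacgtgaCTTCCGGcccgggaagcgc
Mrps22 (chr9:98483725-98483755, minus strand, offset -23): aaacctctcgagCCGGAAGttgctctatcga
Mrps34 (chr17:25114031-25114061, plus strand, offset -29): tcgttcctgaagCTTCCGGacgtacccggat

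The other motifs were rarer. GCGCATGCG, the core of the site for NRF1, another activator of mitochondrial genes, occurred in 5 of 78 windows (6.41%). Its share was 2.44% of all protein-coding genes and 2.82% of those tested. AAGATGGCG, the YY1 site typical of promoters for ribosome and mitochondrial proteins, was found in 4 windows (5.13%) against 1.34% and 1.8%. The cyclic AMP response element TGACGTCA was found in 2 windows (2.56%), close to its share among all protein-coding genes (2.44%) and below that among those tested (2.96%). The search was made on both strands, and none of the 4 motifs contains another. Sites of these factors that lay wholly upstream of the start are printed as examples, with the motif in capitals.
Mrpl16 (chr19:11747718-11747749, plus strand, offset -25): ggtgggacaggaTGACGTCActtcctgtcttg
Mrpl49 (chr19:6107920-6107951, minus strand, offset -68): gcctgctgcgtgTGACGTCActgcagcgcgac
Mrpl10 (chr11:96932261-96932293, plus strand, offset -99): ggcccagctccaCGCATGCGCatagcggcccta
Mrps18b (chr17:36227536-36227568, minus strand, offset -66): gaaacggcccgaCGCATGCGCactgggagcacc
Mrps11 (chr7:78432759-78432791, plus strand, offset -96): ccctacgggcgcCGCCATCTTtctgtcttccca
A match states only that these letters lie in the window, and the share of genes with a match was not tested. The 23 tested genes with the ETS motif had a median log2 fold change of -0.098 in Atm-KO over Atm-WT and the 54 without it -0.080.

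Many of the genes also started close to another gene of the opposite strand. A protein-coding neighbour arranged head to head, with its start within 1000 bases of that of the member, was present for 27 of 78 (34.6%), beside 8.52% of all protein-coding genes and 11.5% of those tested. Mrps11 and Mrpl46, of the small and the large subunit, lay on opposite strands with 30 bases between their starts. Several other partners also serve mitochondria or translation. Mrps12 lay 129 bases from Sars2 (mitochondrial seryl-tRNA synthetase), Mrpl43 lay 56 bases from Twnk (the mitochondrial DNA helicase), Mrpl47 lay 157 bases from Ndufb5 (a complex I subunit), and Mrpl49 lay 52 bases from Fau (a cytosolic ribosomal protein).

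The libraries held between 65967130 and 88030300 counts. Levels are given as CPM, a gene's counts scaled to a common library size with TMM factors (trimmed mean of M values). Atm itself, the targeted gene, was at 67.6, 80.03, 79.4 and 58.99 CPM in Atm-WT 2M, 7M, 13M and 32M and at 51.1, 44.3, 41.1 and 44.9 CPM in Atm-KO 1M, 7F, 11M and 12M. The genotypes did not overlap, and reads remained in all Atm-KO libraries. Granule cell and Purkinje cell markers, which define cerebellum, were all detected (10 of 10 each, none at 0). Of 10 markers each, 10 were lower in Atm-KO for astrocytes (median log2 fold change -0.19), microglia (-0.36) and choroid plexus (-0.52), 9 for oligodendrocytes (-0.18) and Purkinje cells (-0.09), 6 for endothelial cells (-0.23) and 3 for granule cells (0.06). DESeq2 called 4 astrocyte, 4 microglia, 2 endothelial and 1 Purkinje cell markers as lower, beside 2.44% of 20724 genes. By edgeR 0 markers were called and 24 were lower at an unadjusted p under 0.05, beside 8.48% of all genes tested. The summed level of endothelial markers, at 392 to 433 CPM in the Atm-WT libraries and 281 to 368 CPM in those of Atm-KO, did not overlap. The sums overlapped for the other lists, at 5238 to 5981 against 4589 to 5394 CPM for astrocytes, 145 to 197 against 111 to 147 CPM for microglia, 1524 to 2940 against 898 to 2144 CPM for choroid plexus and 3509 to 4563 against 2108 to 3624 CPM for oligodendrocytes, and likewise for Purkinje cells and granule cells. The share of counts in genes annotated as TEC (a biotype of mostly unspliced transcripts that await experimental support) ranged from 0.204% to 0.333% over the Atm-WT libraries and from 0.354% to 0.529% over the Atm-KO libraries. The median level of 10 nuclear-retained RNAs, on the scale of log2(CPM + 0.5) relative to Atm-WT, lay between -0.28 and 0.13 in the Atm-WT libraries and between 0.44 and 0.99 in the Atm-KO libraries. The TEC share and the nuclear-retained RNAs did not overlap between genotypes, and the part of these and of the marker lists in the differences of the members was not tested.

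Together the 78 genes took up 0.128% to 0.158% of the counts of a library. Their summed level was 1452, 1342, 1415 and 1556 CPM in Atm-WT 2M, 7M, 13M and 32M, and 1411, 1404, 1346 and 1379 CPM in Atm-KO 1M, 7F, 11M and 12M. The Atm-KO sums therefore lay within the range of the Atm-WT sums. In Atm-WT, single genes ran from a mean of 2.37 CPM (Mrpl54) to 67.5 CPM (Mrpl3), with a median of 17.6 CPM. Per kilobase of annotated exon the most abundant were Mrpl50, Mrpl28 and Mrpl49, all of the large subunit, at 15.6 ± 0.695, 14.9 ± 2.08 and 13.6 ± 1.05 CPM per kb in Atm-WT (mean ± SD, n = 4). Mrpl33, Mrpl54 and Mrps18c were lowest, at 0.440 ± 0.0167, 0.527 ± 0.0921 and 0.851 ± 0.158 CPM per kb. Exon length here is the union of all isoforms in a GENCODE release other than the one named in the study's methods, so that lengths, shared exons and starts may differ from those the reads were counted on. For Mrpl33 the union is 14501 bp while the canonical transcript has 732 bp, so that its level per kb is a low estimate.

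No member passed an adjusted p of 0.05 in the comparison of Atm-KO with Atm-WT by edgeR's quasi-likelihood test, and 12 had an unadjusted p under 0.05. Over all 22423 genes tested, 0.0178% passed. DESeq2 called 1 member, Mrpl36 (lower, adjusted p = 0.0432), where it called 2.44% of 20724 genes as lower and 5.05% as higher, and limma voom called 0. The smallest adjusted p of a member was 0.125, for Mrpl50. With 60 of 77 members lower and 17 higher in Atm-KO, the median log2 fold change was -0.084, beside -0.02 over all genes tested and -0.06 over 15322 protein-coding genes, of which 63.8% were lower. The difference was under 0.2 on the log2 scale in 58 of 77 members, with standard errors (SE) between 0.057 and 0.25. In bulk tissue, fewer cells of a type and less RNA per cell cannot be told apart.

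**Figure D1:**
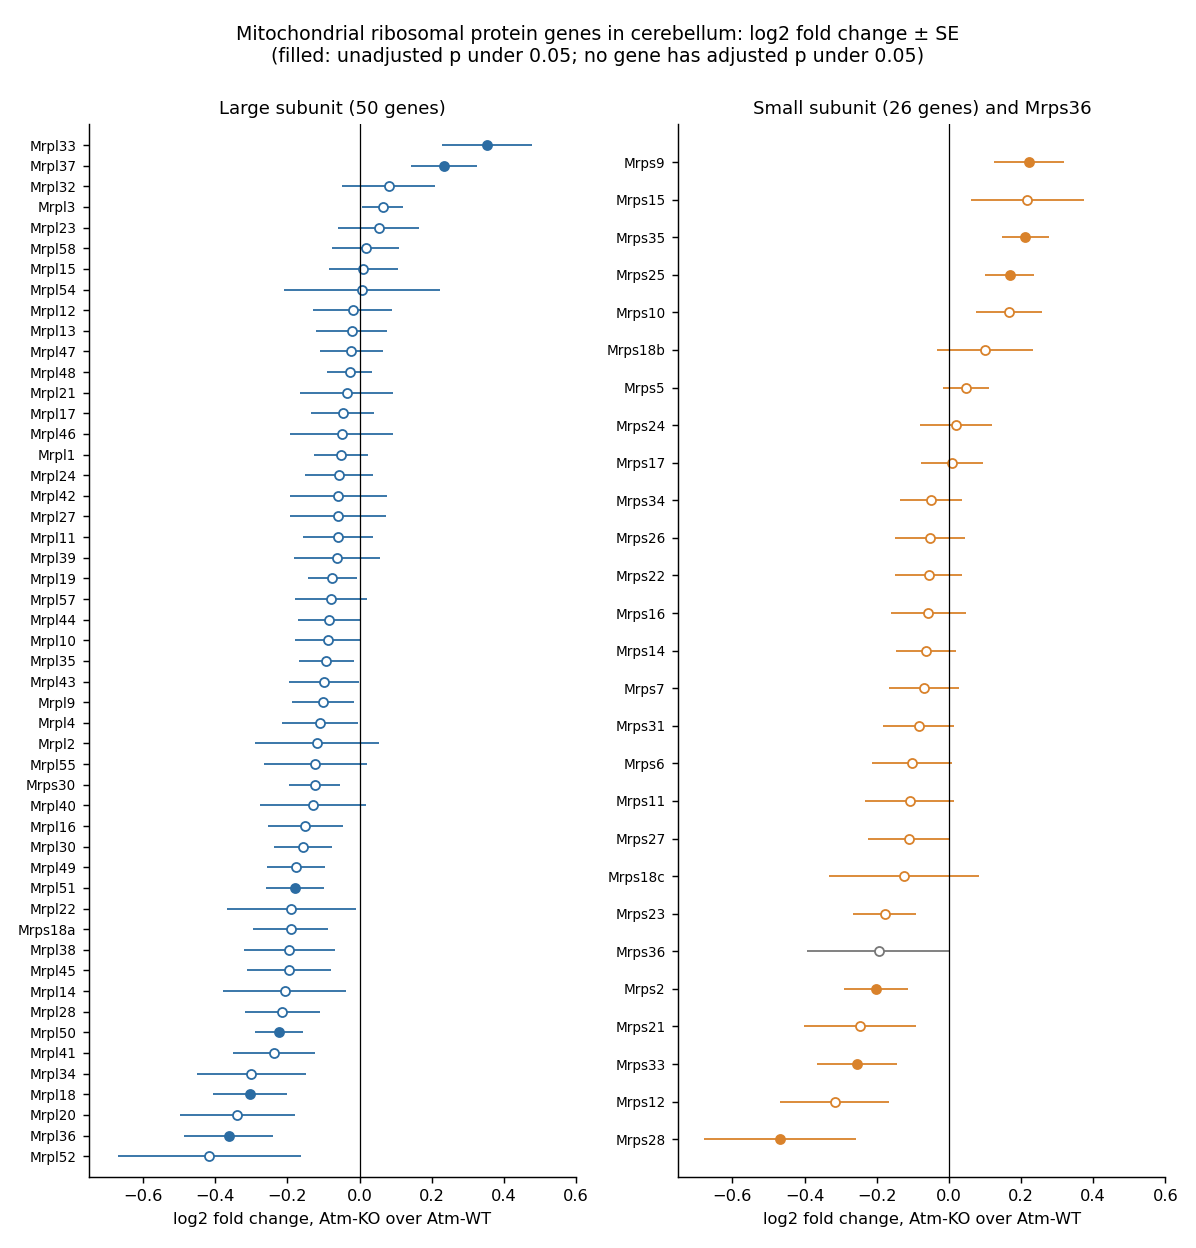
Log2 fold change of Atm-KO over Atm-WT (x axis, points with SE bars) for each of the 77 tested genes, sorted within the large subunit (left) and within the small subunit with Mrps36 (right). Filled points have an unadjusted p under 0.05. In the large subunit 42 of 50 points lie left of 0 and in the small subunit 17 of 26.

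The count of members below 0 depended on single libraries and on the model. It was 53 of 77 without Atm-WT 32M, with a median of -0.03, which lay above the -0.05 over protein-coding genes. Without Atm-WT 7M it was 65 of 77, with a median of -0.12 beside -0.07 over protein-coding genes. Scaled by library size alone, 54 were lower, with a median of -0.04 beside 0.03 over all genes and -0.013 over protein-coding genes. The count was lowest with a surrogate variable in the model, at 48 of 77 and a median of -0.04 beside -0.03 over protein-coding genes.

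Atm-WT 32M stood apart, and not for these genes alone. It held the highest of all 8 values in 43 of 77 members, and 69 members were above their Atm-WT mean there. In Atm-WT 7M only 8 were. The median over members, on the scale of log2(CPM + 0.5) relative to the mean of the Atm-WT libraries, was 0.03, -0.11, -0.06 and 0.14 in Atm-WT 2M, 7M, 13M and 32M, and -0.05, -0.04, -0.11 and -0.11 in Atm-KO 1M, 7F, 11M and 12M. All Atm-KO medians lay between those of Atm-WT 7M and Atm-WT 2M. The standard deviation of CPM was larger in Atm-WT than in Atm-KO for 53 of 77 members, with a median coefficient of variation of 11.2% in Atm-WT and 7.85% in Atm-KO. Atm-WT 32M also had the lowest share of TEC counts (0.204%) and the highest medians of oligodendrocyte (0.21), microglia (0.24) and endothelial (0.10) markers of the 8 libraries, and the part of these in its values was not tested. On the same scale it was also the highest library for nuclear respiratory chain genes (0.22) and for cytosolic ribosomal proteins (0.21). The lowest median over members was that of Atm-WT 7M. Atm-KO 12M was the extreme library for several marker lists and other measures. It held the lowest value in 19 of 77 members, the most of any library, the lowest medians of oligodendrocyte (-0.66), microglia (-0.63) and endothelial (-0.45) markers and of cytosolic ribosomal proteins (-0.46), the highest median of granule cell markers (0.29) and the lowest share of counts from the mitochondrial genome (0.565%). Without Atm-KO 12M, 62 of 77 members were lower, with a median of -0.07.

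**Figure D2:**
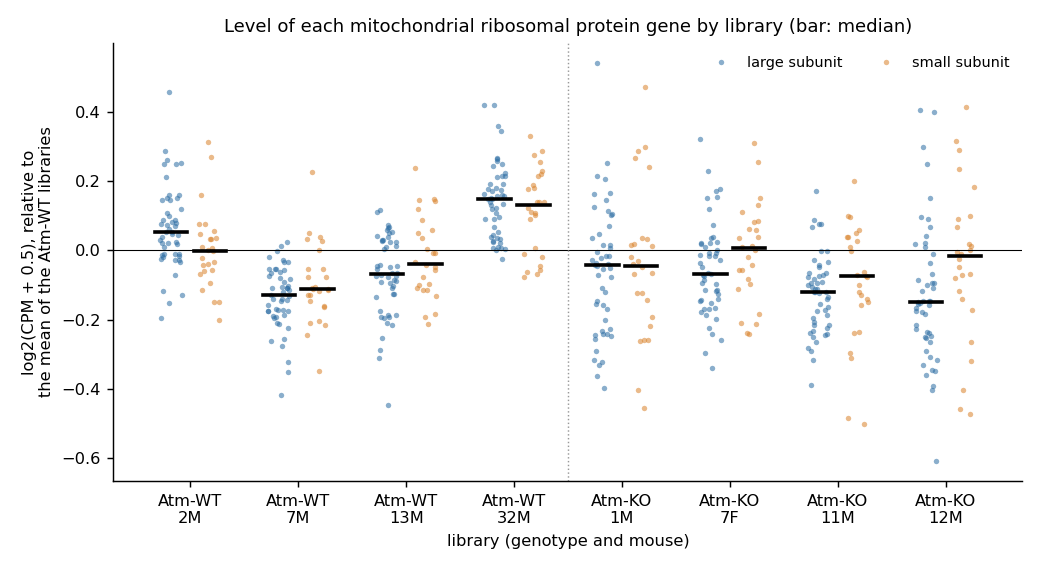
Level of each gene in each library, as log2(CPM + 0.5) relative to the mean of the 4 Atm-WT libraries (y axis), with 1 point per gene, large subunit in blue and small subunit in orange. Black bars are medians, which are highest in Atm-WT 32M and overlap between genotypes.

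The large subunit was described by 50 tested genes, of which 42 were lower in Atm-KO (median log2 fold change -0.09). Among the 30 with a bacterial counterpart the median was -0.081 and among the 20 mitochondria-specific ones -0.11. At the peptidyl transferase centre, where peptide bonds form, lie Mrpl2 and Mrpl3. Mrpl3, the highest of all members in CPM though not per kb of exon, was at 65.9, 66.6, 69.9 and 67.7 CPM in Atm-WT 2M, 7M, 13M and 32M and at 73.1, 66.9, 71.7 and 70.7 CPM in Atm-KO 1M, 7F, 11M and 12M (log2 fold change 0.064 ± 0.057 SE, adjusted p = 0.553). Mrpl2 spread from 7.33 to 12.1 CPM in Atm-WT and from 7.21 to 10.6 CPM in Atm-KO (log2 fold change -0.12 ± 0.17 SE). Both genes overlapped between genotypes.

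Mrpl10, Mrpl11 and Mrpl12 form the stalk and its base, which recruit the elongation factors. Mean levels in Atm-WT and Atm-KO (± SD, n = 4) were 29.1 ± 3.61 and 27.4 ± 1.24 CPM for Mrpl10, 16.2 ± 1.91 and 15.5 ± 0.448 CPM for Mrpl11 and 20.2 ± 2.75 and 19.96 ± 1.84 CPM for Mrpl12. The log2 fold changes were -0.087 ± 0.092 SE, -0.059 ± 0.097 SE and -0.019 ± 0.11 SE, each within its SE of 0, and that of Mrpl12 was above 0 when scaled by library size alone (0.029). Among members with other known roles, Mrpl44, which carries a fold related to ribonuclease III and is mutated in a form of cardiomyopathy, had a log2 fold change of -0.085 ± 0.086 SE. Mrpl58, a peptidyl-tRNA hydrolase built into the ribosome that frees stalled chains, had 0.017 ± 0.092 SE. Mrps30 and Mrps18a, which belong to the large subunit, had -0.12 ± 0.071 SE and -0.19 ± 0.10 SE. None of these passed the test.

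The large subunit members with the smallest p among those that were lower were Mrpl50, Mrpl36 and Mrpl18. Mrpl50 (chromosome 4, 49512509 to 49521137, minus strand), a mitochondria-specific protein, was at 36.9, 36.3, 36.04 and 39.6 CPM in the Atm-WT libraries, in the order above, and at 31.2, 34.3, 30.3 and 31.7 CPM in the Atm-KO libraries. The 4 Atm-KO values were all below the 4 Atm-WT values (log2 fold change -0.22 ± 0.068 SE, unadjusted p = 0.00662, adjusted p = 0.125). Its exons overlap no other annotated gene. Mrpl36 (chromosome 13, 73476605 to 73480647, plus strand), a small protein with a bacterial counterpart, was at 7.51, 6.50, 7.16 and 8.49 CPM in Atm-WT and 5.80, 5.73, 6.06 and 5.46 CPM in Atm-KO, again without overlap (log2 fold change -0.36 ± 0.12 SE, unadjusted p = 0.0124, adjusted p = 0.148). Mrpl18 (chromosome 17, 13130034 to 13135718, minus strand), a protein of the central protuberance, was at 21.5, 18.6, 16.6 and 21.1 CPM in Atm-WT and 14.9, 17.1, 14.6 and 16.3 CPM in Atm-KO, where the highest Atm-KO value lay above the lowest Atm-WT value (log2 fold change -0.30 ± 0.10 SE, adjusted p = 0.148). Tcp1, a chaperonin subunit that starts 502 bases from Mrpl18 in the opposite direction, had a log2 fold change of -0.21 (adjusted p = 0.14). Mrpl51 was lower by less, with a log2 fold change of -0.18 ± 0.081 SE, and its groups overlapped.

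Mrpl28 and Mrpl49, which with Mrpl50 lead the levels per kilobase, had log2 fold changes of -0.21 ± 0.10 SE and -0.18 ± 0.081 SE and overlapped between genotypes. The log2 fold change of largest size in the subunit, -0.42 ± 0.25 SE for Mrpl52 (singled out after its value was seen), came with the largest SE and did not reach an unadjusted p of 0.05. Mrpl54, the tested member lowest in mean CPM of Atm-WT though not per kb of exon, had 0.0074 ± 0.22 SE. Of its annotated exonic bases, 94.4% also belong to Matk on the opposite strand.

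In the large subunit 2 genes were higher in Atm-KO at an unadjusted p under 0.05. Mrpl33 (chromosome 5, 31754279 to 31837542, plus strand), another small protein with a bacterial counterpart, was at 6.29, 6.08, 6.56 and 6.60 CPM in Atm-WT and 9.51, 7.25, 7.25 and 8.62 CPM in Atm-KO, and the genotypes did not overlap (log2 fold change 0.35 ± 0.13 SE, unadjusted p = 0.0159, adjusted p = 0.160). Mrpl37 (chromosome 4, 106912099 to 106924560, minus strand), a mitochondria-specific protein, was at 24.04, 21.5, 21.7 and 25.7 CPM in Atm-WT and 26.98, 27.2, 24.5 and 30.7 CPM in Atm-KO, and 1 Atm-WT value lay inside the Atm-KO range (log2 fold change 0.23 ± 0.091 SE, adjusted p = 0.188).

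The small subunit, which binds the mRNA and decodes it, was described by 26 genes, of which 17 were lower and 9 higher in Atm-KO (median log2 fold change -0.06). The 16 with a bacterial counterpart had a median of -0.066 and the 10 mitochondria-specific ones -0.054. Near the decoding centre, Mrps12 (the counterpart of the bacterial protein in which streptomycin resistance arises) was at 8.06, 6.60, 7.19 and 9.33 CPM in Atm-WT and 5.73, 7.62, 6.20 and 5.49 CPM in Atm-KO (log2 fold change -0.32 ± 0.15 SE, adjusted p = 0.264). Its groups overlapped. Mrps5, another protein near the decoding site, had means of 48.6 ± 2.73 and 50.2 ± 1.56 CPM in Atm-WT and Atm-KO (± SD, n = 4). Mrps2, Mrps16, Mrps22 and Mrps34 are each mutated in combined respiratory chain deficiency, and their log2 fold changes were -0.20 ± 0.089 SE, -0.057 ± 0.10 SE, -0.056 ± 0.092 SE and -0.050 ± 0.086 SE. Of the 3 Mrps18 paralogues, Mrps18b and Mrps18c sit in the small subunit and had 0.10 ± 0.13 SE and -0.12 ± 0.21 SE. Of these 6 genes, Mrps2 alone had an unadjusted p under 0.05. Its values were 22.05, 22.1, 18.5 and 23.8 CPM in Atm-WT and 19.4, 18.5, 18.2 and 19.1 CPM in Atm-KO, where the Atm-WT 13M value fell among those of Atm-KO (adjusted p = 0.233).

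Mrps33 and Mrps28 were the other small subunit members lower at an unadjusted p under 0.05. Mrps33 (chromosome 6, 39777832 to 39787922, minus strand) was at 14.9, 13.97, 14.7 and 19.02 CPM in Atm-WT and 12.9, 13.1, 14.2 and 12.3 CPM in Atm-KO (log2 fold change -0.25 ± 0.11 SE, adjusted p = 0.227), with 1 Atm-KO value inside the Atm-WT range. Mrps28 (chromosome 3, 8865093 to 8988978, minus strand), among the least abundant members, was at 2.995, 2.11, 2.69 and 3.67 CPM in Atm-WT and 1.92, 2.63, 1.84 and 1.89 CPM in Atm-KO (log2 fold change -0.47 ± 0.21 SE, adjusted p = 0.244). The groups of Mrps28 overlapped, since Atm-KO 7F was above Atm-WT 7M.

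Of the 9 small subunit members that were higher in Atm-KO, Mrps35, Mrps25 and Mrps9 had an unadjusted p under 0.05. Mrps35 (chromosome 6, 146944205 to 146975489, plus strand), a mitochondria-specific protein, was at 27.4, 27.3, 25.8 and 26.3 CPM in Atm-WT and 32.9, 29.7, 30.7 and 30.4 CPM in Atm-KO (log2 fold change 0.21 ± 0.066 SE, unadjusted p = 0.00799, adjusted p = 0.131). Mrps25 (chromosome 6, 92125876 to 92161043, minus strand), also mitochondria-specific, was at 30.1, 29.9, 30.7 and 28.9 CPM in Atm-WT and 35.4, 32.8, 30.9 and 35.3 CPM in Atm-KO (log2 fold change 0.17 ± 0.068 SE, adjusted p = 0.203). Neither gene overlapped between genotypes. Of the exonic bases of Mrps25, 47.9% are shared with Nr2c2 on the opposite strand. Mrps9, the counterpart of a bacterial protein at the P site, was at 19.01, 18.1, 21.8 and 19.7 CPM in Atm-WT and 23.7, 20.8, 20.98 and 26.3 CPM in Atm-KO, with overlap (log2 fold change 0.22 ± 0.098 SE, adjusted p = 0.232).

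**Figure D3:**
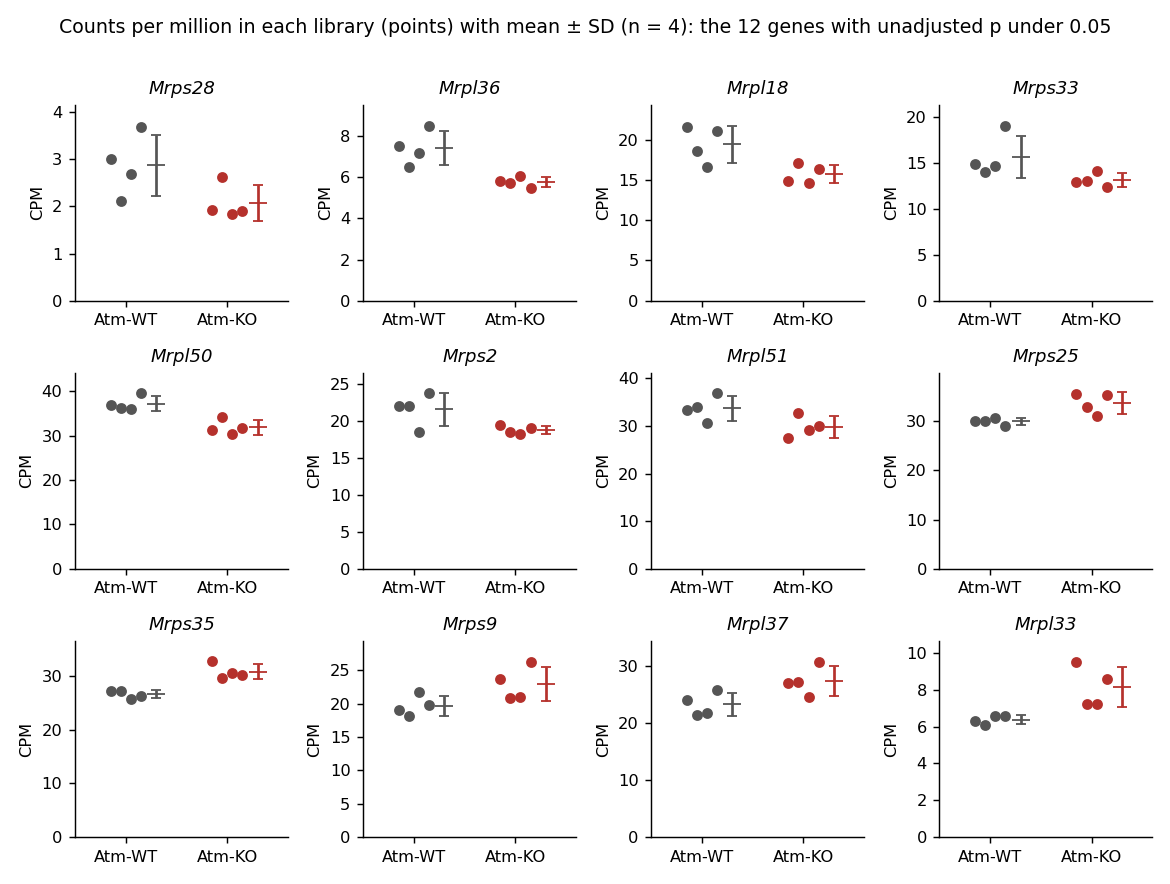
CPM (y axis, from 0) in each of the 4 Atm-WT (grey) and 4 Atm-KO (red) libraries, with mean ± SD beside the points, for the 12 genes with an unadjusted p under 0.05. The genotypes are apart in Mrpl36, Mrpl50, Mrps25, Mrps35 and Mrpl33 and overlap in the others.

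Over all members, 7 were lower and 5 higher at an unadjusted p under 0.05. The background was 8.48% lower and 11.7% higher over all genes tested, and 11.7% lower and 7% higher over protein-coding genes. Values that did not overlap between genotypes were found for 2 members lower (Mrpl36 and Mrpl50), beside 5.12% of all genes, and for 3 members higher (Mrpl33, Mrps35 and Mrps25), beside 6.47%. The counts of members thus lay near or under the background. The 7 lower members became 3 and the 5 higher ones 6 when libraries were scaled by library size alone. Without Atm-WT 32M there were 3 lower members and without Atm-WT 7M 13. Without Atm-WT 7M, Atm-KO 1M or Atm-KO 12M there were 2 higher members.

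The direction of a member went with its annotated exon length. Across the 77 tested genes, Spearman's rho between union exon length and log2 fold change was 0.55 (Pearson's r = 0.62), and across 15318 protein-coding genes it was 0.20. These points are genes of the same 8 libraries and are not independent replicates. Among the 26 shortest members (660 to 3215 bp), 24 were lower and the median was -0.18. The 25 of middle length (3253 to 5085 bp) had -0.064, with 21 lower, and the 26 longest (5455 to 14652 bp) had -0.037, with 15 lower and 11 higher. Protein-coding genes of up to 3215 bp had a median of -0.14, those of 3217 to 5085 bp -0.093, and those of 5086 bp or more, which reach far longer than any member, -0.039. All 5 members higher at an unadjusted p under 0.05 had between 5955 and 14652 bp of exon, whereas the 7 lower ones had between 1731 and 6338 bp. With the length of the canonical transcript alone in place of the union, rho was 0.29. It was 0.60 after removal of the trends with GC content and length of each library and 0.36 with a surrogate variable in the model.

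**Figure D4:**
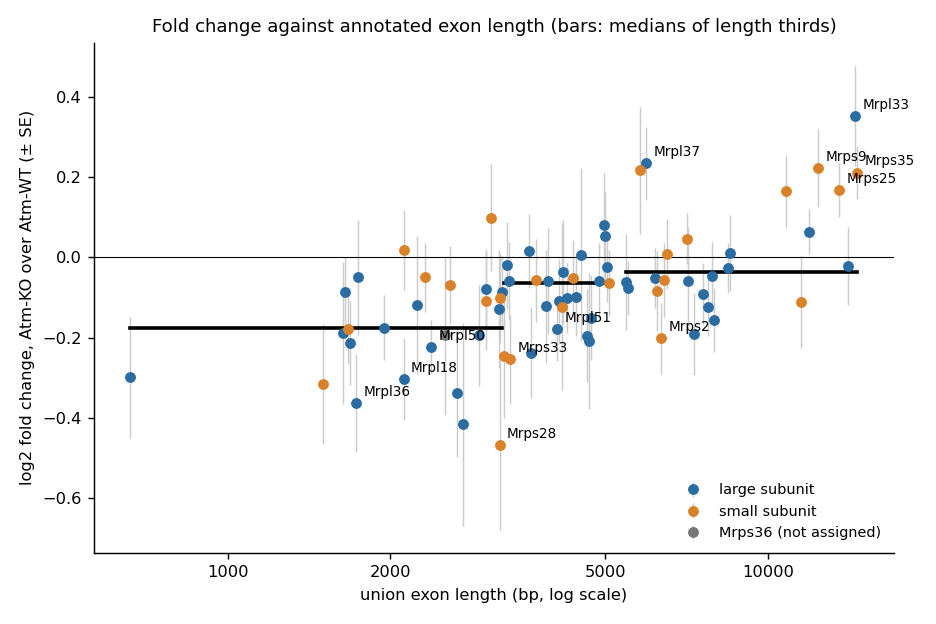
Log2 fold change of Atm-KO over Atm-WT (y axis, ± SE) against union exon length in bp (x axis, log scale) for the 77 tested genes, with the 12 genes of unadjusted p under 0.05 named. Black bars are the medians of the 26 shortest, 25 middle and 26 longest genes, which run from -0.18 to -0.04.

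Large and small subunit were further compared by their summed levels within a library. The ratio of small to large subunit CPM was 0.461, 0.493, 0.501 and 0.467 in Atm-WT 2M, 7M, 13M and 32M, and 0.497, 0.499, 0.503 and 0.519 in Atm-KO 1M, 7F, 11M and 12M. The Atm-WT 13M ratio lay above those of 2 Atm-KO libraries, so the genotypes overlapped.

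Annotated genes that share exons with a member bear on these counts, because the sources used here do not say whether reads were assigned by strand. Exonic bases were shared with a gene on the opposite strand for 57 of 78 members and with a gene on the same strand for 8. More than 50% of the exonic bases were shared for 6 members, among them Mrpl54, Mrpl34 (81.4%) and Mrps18c (84.3%). Without any shared base were 18 members, Mrpl50 and Mrps16 among them. The annotation also holds 6 pseudogenes named after members, to which reads may be split.

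The mitochondrial ribosome has further proteins under other symbols, which were listed separately. Of Dap3, Ptcd3, Chchd1, Aurkaip1 and Gadd45gip1, 3 were lower and 2 higher in Atm-KO, and none passed an adjusted p of 0.05 by edgeR. Ptcd3, a small subunit protein with RNA-binding repeats, was at 48.1, 52.7, 54.1 and 52.6 CPM in Atm-WT and 68.7, 61.9, 62.6 and 65.6 CPM in Atm-KO without overlap (log2 fold change 0.32 ± 0.064 SE, adjusted p = 0.0931 by edgeR and 0.00412 by DESeq2). Gadd45gip1, of the large subunit, had a log2 fold change of -0.16 ± 0.11 SE with overlapping groups.

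The other genes of mitochondrial translation had group medians near 0. As a background for the counts below, 8.48% of all genes tested were lower and 11.7% higher at an unadjusted p under 0.05. DESeq2 called 2.44% of 20724 genes as lower and 5.05% as higher. Of 18 translation factors, 12 were lower and 6 higher (median log2 fold change -0.01), and 0 passed by edgeR, 3 with an unadjusted p under 0.05. DESeq2 called 2 as higher. These were Gfm2, an elongation factor G homologue that acts in ribosome recycling, with 0.25 ± 0.066 SE (DESeq2 adjusted p = 0.0323), and Guf1, the counterpart of bacterial LepA, with 0.43 ± 0.12 SE (DESeq2 adjusted p = 0.0211). Guf1 was at 37.8, 35.4, 44.5 and 31.5 CPM in Atm-WT and 55.3, 41.2, 48.8 and 56.4 CPM in Atm-KO, and its groups overlapped.

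Of 20 aminoacyl-tRNA synthetases and related enzymes of mitochondria, 13 were higher and 7 lower (median 0.04). Lars2, the leucyl-tRNA synthetase, was at 103, 157, 28.9 and 117 CPM in Atm-WT and 25.99, 29.8, 26.95 and 37.3 CPM in Atm-KO (log2 fold change -1.76 ± 0.37 SE, adjusted p = 0.0931 by edgeR and 0.0106 by DESeq2). The groups of Lars2 overlapped, since Atm-WT 13M was at the level of Atm-KO. Tars2, the threonyl-tRNA synthetase, was at 21.5, 22.5, 21.4 and 19.8 CPM in Atm-WT and 31.5, 24.8, 24.9 and 27.9 CPM in Atm-KO, without overlap (log2 fold change 0.36 ± 0.092 SE, adjusted p = 0.104 by edgeR and 0.0173 by DESeq2). By edgeR 0 of the 20 passed, with 6 at an unadjusted p under 0.05, and DESeq2 called 2 higher and 1 lower.

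Of 24 genes for assembly of the mitochondrial ribosome and modification of its rRNA, 12 were higher and 12 lower (median 0.01). Mettl17, which acts in small subunit assembly, was at 13.4, 13.9, 10.99 and 10.4 CPM in Atm-WT and 20.5, 15.6, 17.4 and 21.6 CPM in Atm-KO, without overlap (log2 fold change 0.63 ± 0.13 SE, adjusted p = 0.0931 by edgeR and 0.00114 by DESeq2). Ddx28, an RNA helicase of large subunit assembly, had -0.26 ± 0.093 SE, also without overlap (adjusted p = 0.165 by edgeR and 0.0742 by DESeq2). By edgeR 0 of the 24 passed, with 2 at an unadjusted p under 0.05, and DESeq2 called 1, Mettl17.

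Beside the mitochondrial ribosomal proteins, 3 related groups had larger differences. Among nuclear genes for the respiratory chain, whose complexes take in the proteins that mitochondrial ribosomes make, 79 of 81 were lower, with a median of -0.20 on the log2 scale. Proteins of the cytosolic ribosome had -0.31, with 73 of 78 lower, and the 13 protein-coding genes of the mitochondrial genome -0.55, with 12 lower. By library, the median of the mitochondrial genome was 0.43, -0.12, -0.21 and 0.0016 in Atm-WT 2M, 7M, 13M and 32M and -0.60, -0.15, -0.53 and -0.70 in Atm-KO 1M, 7F, 11M and 12M. The respiratory chain median of Atm-KO 7F (-0.08) lay within the Atm-WT range of -0.16 to 0.22. An unadjusted p under 0.05 in the lower direction was found by edgeR for 35 respiratory chain genes, 58 cytosolic ribosome genes and 8 mitochondrial genome genes. The share was 8.48% over all genes tested and 11.7% over protein-coding genes. An adjusted p under 0.05 was found for 0 by edgeR, whereas DESeq2 called 5, 19 and 5 of them as lower, beside 2.44% of 20724 genes. The difference between the groups and the mitochondrial ribosomal proteins was not tested.

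**Figure D5:**
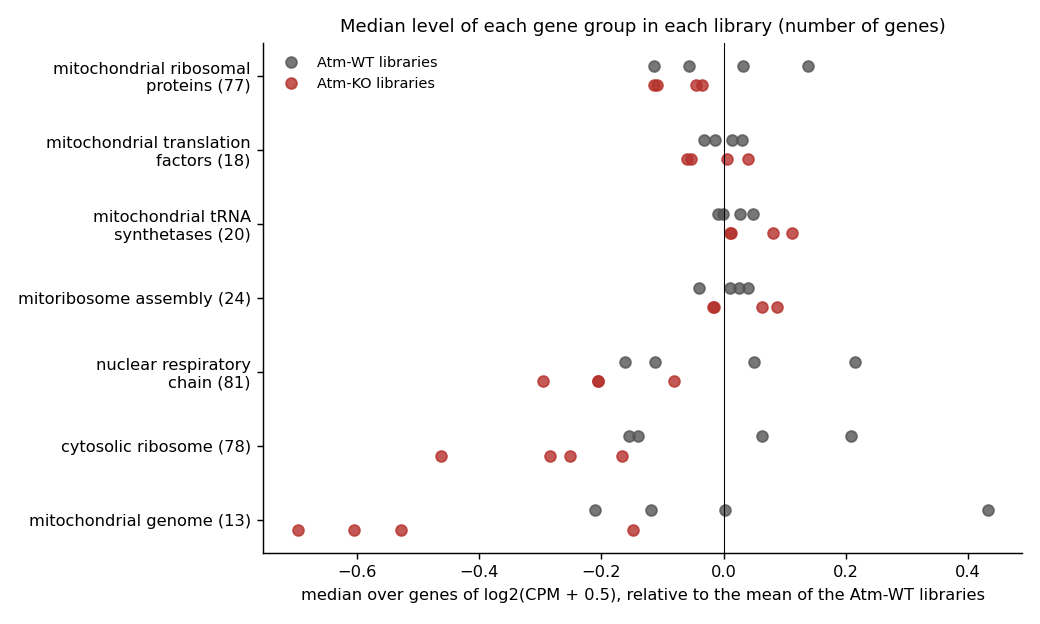
Median over genes of log2(CPM + 0.5) relative to the mean of the Atm-WT libraries (x axis) for each gene group (y axis, number of genes in brackets), with 1 point per library, Atm-WT in grey and Atm-KO in red. For the mitochondrial ribosomal proteins the Atm-KO points lie within the Atm-WT range of -0.11 to 0.14, and for the cytosolic ribosome they lie below it.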

How the data were processed

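RNA of 8 cerebella (4 Atm-WT, 4 Atm-KO) was sequenced on an Illumina platform by the study's service provider. The authors deposited 1 table of raw gene counts, made per the labels and the submitters' processing notes with FastQC 0.11.9, STAR and featureCounts on GRCm39. The STAR and featureCounts settings, strand and pairing included, are not given in the sources used here. Of counts between 1 and 50, 67.3% to 73.3% were even. Gene identifiers were matched to symbols, biotypes and exons with a GENCODE annotation of GRCm39 of another release than that named in the study's methods (56017 of 56691 matched, which hold 99.89% of the counts of the least covered library).

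Counts were tested as deposited with edgeR 4.0.16 in R 4.3.3, as the 2 genotypes over all 8 libraries, with filterByExpr, TMM factors, the quasi-likelihood test and Benjamini-Hochberg adjustment over all 22423 genes that passed, at a threshold of 0.05. The SE of a log2 fold change is its size divided by the square root of F. CPM use the TMM library sizes. Alternatives were DESeq2 1.42.0, limma voom 3.58.1, other scalings and filters, the mitochondrial genome left out, a surrogate variable (sva 3.50.0), GC content and length trends removed, and each library left out. Simulated counts for this comparison, with 22188 genes and 200 of them changed by 1 on the log2 scale, were also tested. Of these 200, edgeR recovered 200, and it made 14 false calls. Recovery of smaller differences was not tested, and 58 of 77 members differed by less than 0.2 on that scale.

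Samples were grouped by genotype in the labels. Replicates are separate mice. The members and gene lists were chosen with earlier results of these data known. Genes are named by role, by the smallest p in each direction (6 lower, 4 higher), by the 3 highest and 3 lowest levels per kb, or for failing the filter. Added to these were Atm and the 2 smallest p of each other translation list. Mrpl51, Mrps9 and Mrpl52 were named after their values were seen.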

Additional observations from a re-analysis of the deposited data

Results flagged for a closer look

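In 72 groups of 4 libraries (29 named members, and 7 sums, medians and ratios over the members, in each genotype), 3 held a library whose gap to its nearest neighbour exceeded Dixon's critical share of the group's range, where chance alone gives about 3.6. For Mrps16, a small subunit protein, Atm-WT 32M was at 11.5 CPM and the other Atm-WT libraries between 10.01 and 10.1 CPM. For Mrps30, a large subunit protein, Atm-KO 1M was at 28.85 CPM and the other Atm-KO libraries between 26.7 and 27.1 CPM. For Mrps28, a small subunit protein, Atm-KO 7F was at 2.633 CPM and the other Atm-KO libraries between 1.84 and 1.92 CPM.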

How the results depend on the processing

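The median log2 fold change of the members stayed below 0 in all 19 alternatives run, and between -0.03 and -0.12. The median over protein-coding genes also stayed below 0 in all of them. The number of members with an adjusted p under 0.05 was 0 in the main test and 1 with DESeq2, and over all genes 4 and 1552 (591 by edgeR with no filter on low counts). Members lower at an unadjusted p under 0.05 (7 in the main test) were 4 with limma voom, 3 with library size alone, with TMM from protein-coding genes, with at least 10 counts in every library and with counts halved (an alternative chosen after seeing that most counts were even), 2 with a surrogate variable and 11 with GC content and length trends removed. Members higher (5) were 1 with the surrogate variable. With 1 library left out, these counts ran from 3 to 13 lower and from 2 to 6 higher, and members lower without overlap of genotypes from 3 (without Atm-WT 32M or Atm-KO 12M) to 11 (without Atm-WT 7M), beside 2. The last of these counts is not comparable with the full design, since fewer libraries separate more easily. With the surrogate variable the log2 fold change turned to 0.16 for Mrpl2, 0.0044 for Mrpl10, 0.017 for Mrpl11 and 0.043 for Mrpl12. That of Mrpl12 was also above 0 with library size alone (0.029), TMM from protein-coding genes (0.024), at least 10 counts (0.0061), GC content and length trends removed (0.014) and counts halved (0.0062), and that of Mrpl54 was -0.013 with voom. With 1 library left out, log2 fold changes crossed 0 for Mrpl2 (-0.23 to 0.018), Mrpl12 (-0.081 to 0.071), Mrpl58 (-0.044 to 0.092), Mrps18c (-0.27 to 0.016), Mrps22 (-0.10 to 0.0043) and Mrpl54 (-0.12 to 0.11). The cause was not tested. No paired analysis was possible because the labels pair no mice across genotypes.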
